A study of Rattus norvegicus with 53 samples.

Results

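Peripheral blood mononuclear cells (PBMCs), the lymphocytes and monocytes of blood, were cultured with the cells' own (autologous) serum, and the 10 arrays of that culture fell into 2 sets. Replicates 1 to 6 formed one set of 6 arrays and replicates 7 to 10 the other set of 4, out of 53 arrays in the series. The members were chosen by title and replicate number, and the division itself was found by clustering the values of these same arrays. It was therefore known to be a large difference in the values, so every comparison between the 2 sets below is a description and carries no test.

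All 10 cultures held PBMCs of healthy male Brown Norway (BN) rats, an inbred strain, at day 180, kept for 6 h in 20% of the donor's own plasma (the sample names say serum, the protocol says EDTA plasma). No agent was added, and the labels name no allele, treatment or other difference between replicates 1 to 6 and 7 to 10. The labels and the table header give no array run, scan date or extraction date for any of the 10. Nor do they tie a replicate to its own rat or culture, so the spread within a set may be technical. Of the other groups, 15 arrays held the same kind of cells with plasma of other BN rats (allogeneic), 4 held autologous serum with interleukin-1B, and 24 held serum of BioBreeding rats, a line used as a model of type 1 diabetes. Of the 24, 12 had day 40 serum of DRlyp/lyp rats, 6 labelled IL-1RA (the interleukin-1 receptor antagonist) and 6 PBS. The rest had day 60 serum, with 4 arrays each for DRlyp/lyp rats, for DRlyp/lyp rats with IL-1RA added to the culture serum, and for DR+/+ rats. By the protocol the day 40 IL-1RA was injected into the rats, whereas the source name says that it supplemented the serum.

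Blood mononuclear preparations carry small numbers of platelets and of young red cells, which still hold globin and other red cell transcripts. Lymphocytes in a short culture switch on immediate early genes, such as Fos, Egr1 and Myc, within minutes to hours of stimulation or handling. Oligonucleotide arrays of this kind read the 3′ end of a transcript, and control probe sets at the 3′ end, middle (M) and 5′ end of beta-actin and GAPDH show how far labelled copies reach toward the 5′ end. A larger 3′ minus 5′ difference means relatively less 5′ signal, as occurs with broken RNA or short labelled copies.

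Correlations of whole arrays showed the division. Pairs within replicates 1 to 6 correlated at r = 0.974 to 0.996 across probe sets (median 0.987, 15 pairs), and pairs within replicates 7 to 10 at 0.969 to 0.984 (median 0.976, 6 pairs). Pairs between the sets correlated at 0.924 to 0.970 (median 0.943, 24 pairs). Replicate 1 was the least typical of its set, with r from 0.974 to 0.983 with its own set and up to 0.970 with the other. On the first principal component of the 10 arrays, which held 66.4% of the variance, replicates 2, 3, 4 and 6 lay between 58.5 and 61.1, replicate 5 at 31.5 and replicate 1 at 3.44. Replicates 7, 8 and 10 lay between -85.0 and -66.8 and replicate 9 at -44.4. The values of an array had an SD of 2.13 to 2.32 in replicates 1 to 6 and of 2.00 to 2.12 in replicates 7 to 10. Ward clustering of all 53 arrays put replicates 1 to 6 with allogeneic replicates 1 to 3 and all 12 arrays of day 40 serum, 21 arrays in all. Replicates 7 to 10 lay with the other 32, which included all 4 interleukin-1B cultures.

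A level below is a log2 value of a probe set, and a difference is the mean of replicates 1 to 6 minus the mean of replicates 7 to 10. A gene is called higher or lower only where all 6 values lay on one side of all 4, so that the sets did not overlap. Of 14217 genes, 1648 (11.6%) were higher and 2958 (20.8%) lower, together 4606 (32.4%). Differences of at least log2 1, a 2-fold change, were found for 1026 genes (7.22%) upward and 388 (2.73%) downward. Over 31042 probe sets the sets did not overlap for 3814 upward (12.3%) and 6346 downward (20.4%), together 10160 (32.7%), and differed by at least log2 1 for 2648 (8.53%) and 603 (1.94%). The median difference of all genes was -0.16, against which the values below are to be read. After each array was centred on its median, 56.2% of the probe sets whose sets did not overlap were higher, against 37.5% without centring. These shares describe all genes, and the counts of each gene class below stand beside them, since the class lists were compared on the same arrays that defined the sets.

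The beta-actin controls separated the sets. The 3′ minus 5′ actin difference was 3.76, 4.18, 3.96, 4.04, 3.20 and 4.31 in replicates 1 to 6 (3.91 ± 0.39, SD, n = 6). It was 2.78, 2.37, 2.50 and 2.57 in replicates 7 to 10 (2.56 ± 0.17, SD, n = 4). The sets did not overlap, replicate 5 being the lowest of the first and replicate 7 the highest of the second. The 5′ actin probe set accounted for most of this by value, with a mean level of 7.73 ± 0.72 in replicates 1 to 6 and 8.75 ± 0.39 in replicates 7 to 10, while the 3′ probe set averaged 11.64 ± 0.50 and 11.30 ± 0.51. With the middle probe set in place of the 5′ one, the actin difference averaged 1.80 ± 0.26 and 1.22 ± 0.16, and the sets again did not overlap.

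GAPDH, a glycolytic enzyme used as the other control, separated them less. Its 3′ minus 5′ difference ran from 2.22 in replicate 5 to 4.07 in replicate 3 (median 3.74, mean 3.45 ± 0.69). In replicates 7 to 10 it was 2.53, 2.40, 3.04 and 2.74 (2.68 ± 0.28). The sets overlapped, because replicate 5 lay below all 4 arrays of the other set while the other 5 arrays lay above them all. Between the 3′ and middle GAPDH probe sets the sets averaged 0.97 ± 0.37 and 0.93 ± 0.21. The hexokinase controls were near the lower end of the scale, with 3′ levels of 3.66 to 4.31, and their 3′ minus 5′ differences overlapped.

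**Figure D1:**
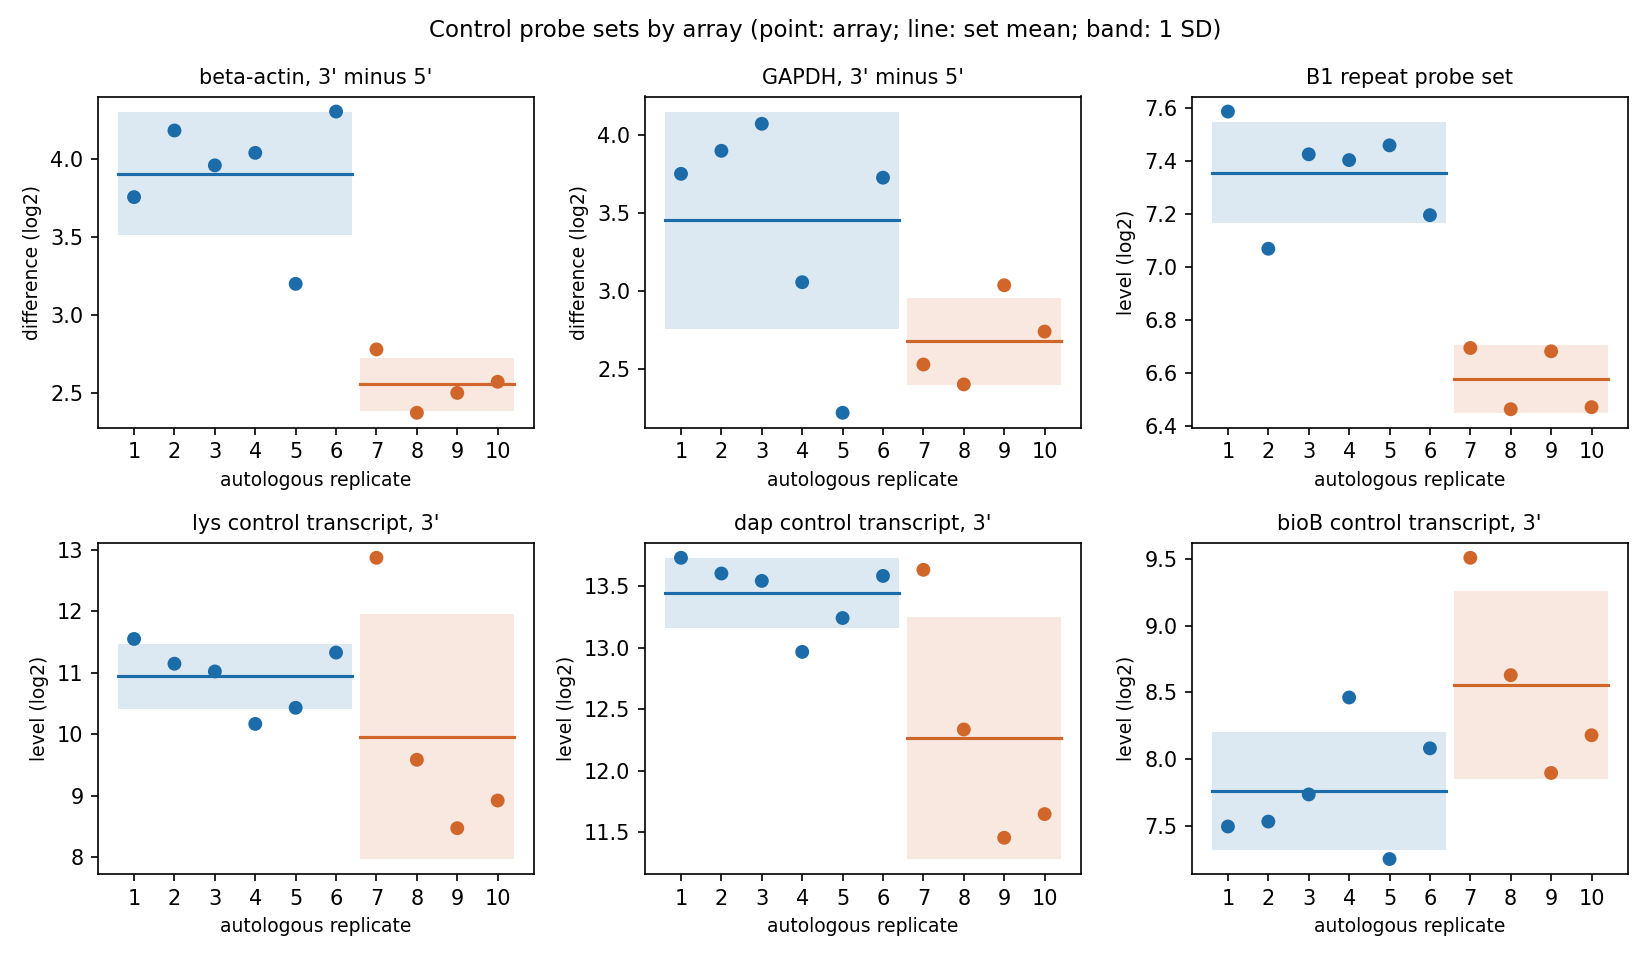
Control measures of the 10 autologous arrays: the 3′ minus 5′ difference (log2) of beta-actin and GAPDH, and the level (log2) of the B1 repeat probe set and of the 3′ probe sets of the lys, dap and bioB control transcripts. Points are arrays (blue, replicates 1 to 6; orange, replicates 7 to 10), lines are set means and bands 1 SD; the actin and B1 panels show no overlap (actin 3.20 to 4.31 against 2.37 to 2.78), and replicate 7 stands above replicates 8 to 10 for lys and dap.

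Other controls divided the arrays in a different way. The probe sets for lys, phe, thr and dap match bacterial transcripts that a laboratory can add to total RNA before labelling, and the labels do not say whether they were added. The 3′ lys level was 12.87 in replicate 7 but 9.58, 8.47 and 8.92 in replicates 8 to 10, and ran from 10.17 to 11.55 in replicates 1 to 6. The 3′ minus 5′ dap difference was 1.21 in replicate 7 and 4.75, 4.53 and 4.56 in replicates 8 to 10, against 2.20 to 3.52 in replicates 1 to 6. By these transcripts replicate 7 stood apart from the other arrays of its set. The bioB probe sets, for labelled transcripts added at hybridisation, overlapped between the sets, with 3′ levels of 7.25 to 8.46 and 7.90 to 9.51.

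The probe set for B1, a short repeat present in many rat introns and untranslated regions, was also apart. Its level was 7.07 to 7.59 in replicates 1 to 6 (median 7.42, mean 7.36 ± 0.19) and 6.69, 6.46, 6.68 and 6.47 in replicates 7 to 10 (6.58 ± 0.13). The B2 repeat probe set averaged 3.23 ± 0.14 and 3.26 ± 0.06, near the lower end of the scale.

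The same measures were set beside the other groups. Allogeneic replicates 1 to 3 had an actin 3′ minus 5′ difference of 0.76 to 3.60 (median 2.81), with the lowest value in replicate 2, and allogeneic replicates 4 to 15 one of 2.14 to 3.36 (median 2.69), so actin did not separate them. GAPDH did, at 3.22 to 4.12 and 2.22 to 3.20, and so did the B1 repeat, at 7.49 to 7.57 and 6.57 to 7.08. The day 40 cultures, which clustered with autologous replicates 1 to 6, had actin differences of 3.90 ± 0.34 (labelled IL-1RA, n = 6) and 3.52 ± 0.27 (serum of rats given PBS, n = 6). The autologous cultures with interleukin-1B, which clustered with replicates 7 to 10, had 2.71 ± 0.12 (n = 4).

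The actin difference was next related to each probe set within the sets, the only relation here that the division did not use. A model with a mean for each set and 1 slope on the actin difference was fitted to the 10 arrays with limma. It called 0 of 31042 probe sets (0%) at an adjusted p under 0.05, while 2466 had an unadjusted p under 0.05. The smallest adjusted p was 0.618. The genes with the smallest p were Mbnl3, a regulator of splicing, with a slope of 1.18 (SE 0.224), and Shoc2, a scaffold of RAS signalling, with 1.54 (SE 0.300), both at an adjusted p of 0.618 with limma. The SD of the actin difference within the sets was 0.39 and 0.17. With 10 arrays over so narrow a range, a count of 0 does not show that there was no relation. Across all 53 arrays with a mean for each group and set, 1145 probe sets were called, 988 with a positive and 157 with a negative slope. Without allogeneic replicate 2, whose actin difference of 0.762 was the lowest, 768 were called. Shoc2 passed across the 53 arrays (slope 0.68, adjusted p = 0.000736 with limma), and Mbnl3 did not (slope -0.13, adjusted p = 0.644 with limma). The part of RNA integrity in the differences below was not tested beyond this.

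Red cell genes were lower in replicates 1 to 6. Of 44 erythroid genes listed, 29 were measured, and 15 of them were lower and 2 higher, beside 20.8% and 11.6% of all genes. The median difference of the list was -0.98, against -0.16 for all genes. Since the arrays hold bulk RNA, fewer cells of a type and less RNA per cell cannot be told apart.

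Rhd, the Rh blood group protein of the red cell membrane, had a level of 6.78 to 9.49 in replicates 1 to 6 (median 7.96). It was 11.33, 11.07, 11.40 and 11.34 in replicates 7 to 10, a difference of -3.18 (9.09-fold lower). Gata1, the master transcription factor of the erythroid lineage, ran from 5.94 to 8.08 (median 6.74) against 9.71, 9.29, 9.34 and 9.32, a difference of -2.56. In both genes the 4 arrays of the second set lay close together while the first set spread over more than log2 2. Ahsp, the chaperone of free alpha globin, ran from 6.59 to 8.39 (median 7.48) against 10.26, 9.89, 9.56 and 9.62, a difference of -2.33. Kel, which carries the Kell blood group, differed by -2.18. Alas2, the first enzyme of heme synthesis in red cells, ran from 10.35 to 13.20 (median 12.15) against 13.50, 13.46, 13.72 and 13.56, a difference of -1.54.

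The most abundant red cell transcript behaved otherwise. Hbb, beta globin, was at 13.69 to 14.35 (median 14.12) in replicates 1 to 6 and at 14.29, 14.38, 14.31 and 14.29 in replicates 7 to 10. The sets overlapped, with a difference of -0.24, at levels near the top of the array's range. The 2 red cell genes that were higher, named after their values were seen, were Cpox, a heme synthesis enzyme active in many cell types (difference 1.40), and Epb41, a protein of the membrane skeleton that lymphocytes also contain (0.59).

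The red cell genes also ordered the arrays within the first set. Of the 15 lower genes, 12 had their highest value of the 6 in replicate 1 and 12 their lowest in replicate 5. Over all 2958 lower genes, replicate 1 was the highest in 53.4% and replicate 5 the lowest in 9.26%, and over all genes in 28.8% and 12.9%. The actin difference was also lowest in replicate 5 of that set (3.20), and replicate 1 (3.76) was next. Within the sets, the slope on the actin difference was 1.26 for Alas2, 1.07 for Kel and 0.99 for Rhd, with adjusted p = 0.618, 0.626 and 0.647 with limma. The part of RNA integrity in this order was not tested.

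The 10 genes with the largest difference downward followed the same order without exception, each being highest in replicate 1 and lowest in replicate 5 among replicates 1 to 6. They were Tk1, Rhd, Akr7a3, Alox15, Plekhb1, Cd52, Rrp12, Rec114, Tfdp2 and Pttg1. Tk1, thymidine kinase of dividing cells, had the largest difference, with 5.42 to 9.20 (median 7.62) against 11.21, 10.98, 11.11 and 10.98, or -3.52 (11.4-fold lower). Alox15, a lipoxygenase that acts in maturing red cells and in some leukocytes, ran from 5.95 to 8.62 (median 7.15) against 10.44, 10.69, 10.26 and 9.59, or -3.05. Cd52, a surface glycoprotein of lymphocytes, ran from 6.25 to 9.65 (median 8.01) against 11.23, 11.12, 10.51 and 10.94, or -2.97. Akr7a3, an aldo-keto reductase, differed by -3.15, Tfdp2, a partner of E2F transcription factors, by -2.67, and Pttg1, the securin of mitosis, by -2.65. Within replicates 7 to 10 the SD of these genes ran from 0.11 for Tk1 to 0.47 for Akr7a3 and Alox15, and within replicates 1 to 6 from 0.66 for Pttg1 to 1.22 for Tk1.

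**Figure D2:**
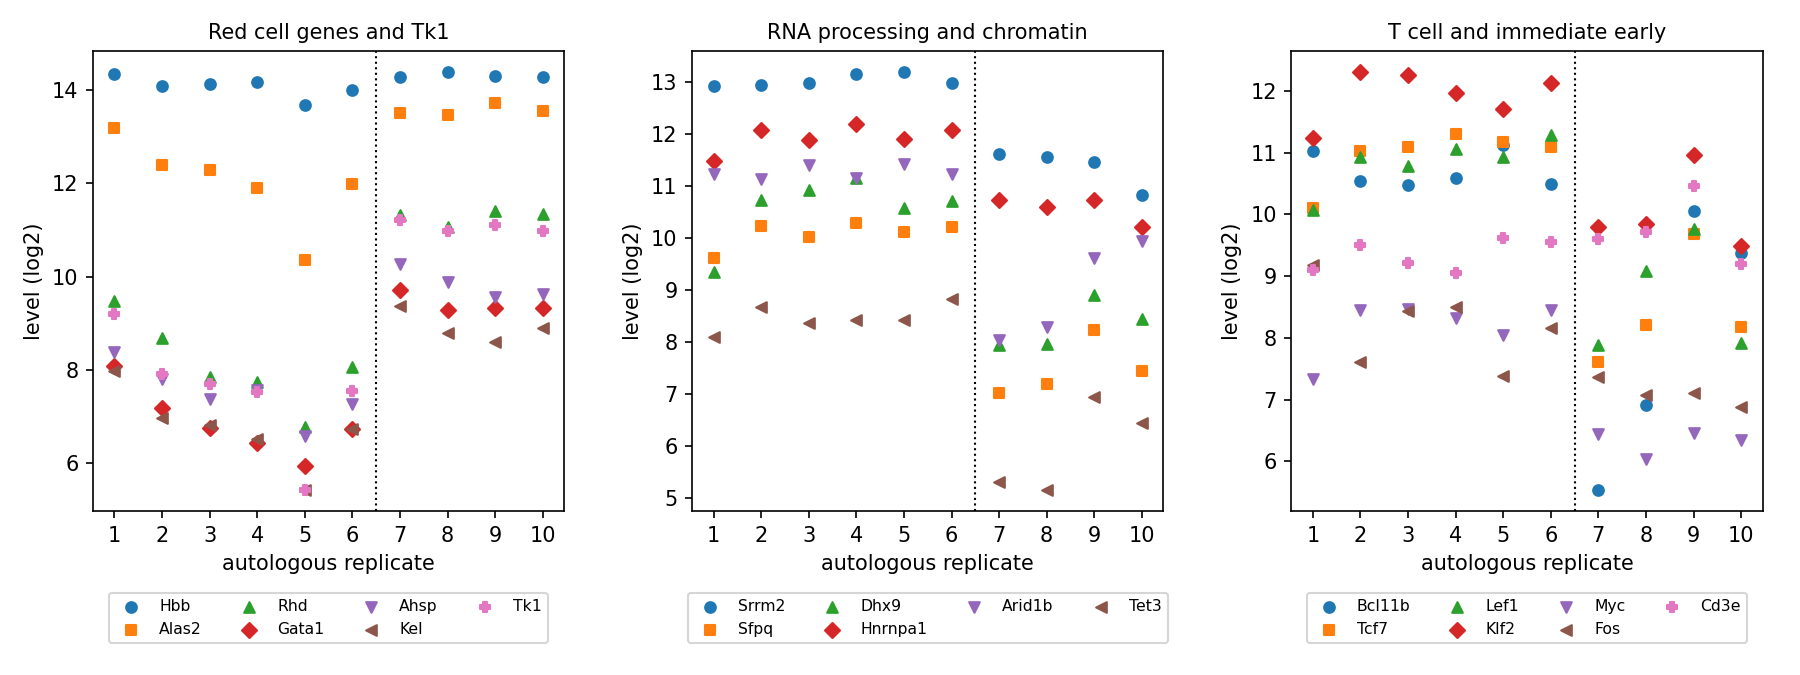
Levels (log2) of named genes in the 10 autologous arrays, 1 point per gene and array, with a dotted line between replicates 1 to 6 and 7 to 10. Red cell genes and Tk1 are lowest in replicate 5 of the first set and tight in the second (Alas2 10.35 to 13.20 against 13.46 to 13.72), whereas the T cell factor Bcl11b spreads from 5.53 to 10.06 in the second set.

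Of 21 T cell genes measured, 3 were higher and 0 lower, with a list median of 0.36. That median was 0.12 after a second quantile normalization and 0.62 with the actin difference as a covariate. The share higher, 14.3%, lay near the 11.6% of all genes. The list had a median level of 9.50, in the highest of 4 level bins. Of all genes in that bin 26.1% were higher, with a median difference of 0.26. The 3 higher T cell genes were transcription factors of T cell identity. Bcl11b was at 10.48 to 11.13 (median 10.57) in replicates 1 to 6 and at 5.53, 6.91, 10.06 and 9.38 in replicates 7 to 10, a difference of 2.74. Tcf7 was at 10.11 to 11.30 (median 11.09) against 7.62, 8.22, 9.68 and 8.18 (2.54), and Lef1 at 10.08 to 11.29 (median 10.93) against 7.89, 9.08, 9.77 and 7.91 (2.18). Replicate 9 was the closest to the first set in all 3. Of the 21 genes, 13 had a positive and 8 a negative difference, and 5 differed by at least log2 1 upward. The surface markers Cd3e and Cd4, named whatever their values, did not follow the 3 factors. Cd3e, a chain of the T cell receptor complex, was at 9.06 to 9.61 (median 9.36) against 9.61, 9.72, 10.47 and 9.20. It differed by -0.41 with overlap, and by 0.01 on its other probe set. Cd4, the coreceptor of helper T cells, differed by -0.38, also with overlap, and by 0.28 with the actin covariate. Of the 5 GIMAP GTPases measured, a family of lymphocyte survival genes, 0 were higher or lower; Gimap7 differed by 1.60 and Gimap1 by 0.96, with overlap.

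B cell genes differed little. Of 16 measured, 1 was higher and 2 lower, with a list median of -0.18, or -0.46 after a second quantile normalization. Blk, a kinase of the B cell receptor pathway, was the higher one (0.87), and Cd37, a leukocyte tetraspanin, and Ms4a1, which encodes CD20, were lower (-1.25 and -0.64). Ms4a1 was at 9.31 to 9.91 (median 9.62) against 10.68, 10.21, 10.01 and 10.28.

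Cytotoxic cell and monocyte genes were lower where they separated. Of 23 genes of natural killer (NK) and cytotoxic cells, 9 were lower and 0 higher, with a median of -0.66. Nkg7, a granule membrane protein, was at 7.93 to 8.64 (median 8.28) against 9.78, 10.01, 9.12 and 9.12 (-1.24). Gzmb, granzyme B, differed by -1.20, Ccl5, a chemokine of effector lymphocytes, by -0.92 and Klrc1, an NK cell receptor, by -0.90. Of 30 monocyte and macrophage genes, 8 were lower and 0 higher, with a median of -0.54, or -0.22 with the actin covariate. The share lower, 26.7%, lay near the 20.8% of all genes and below the 30.2% of genes at like levels (second of 4 level bins). For the cytotoxic list it was 39.1%. Ctsb, the lysosomal protease cathepsin B, was at 10.04 to 11.53 (median 10.25) against 12.02, 11.89, 11.86 and 11.95 (-1.50), the 11.53 being replicate 1. Csf1r, the receptor of the macrophage growth factor, differed by -0.93, Ctss, cathepsin S, by -0.91 and Ccr2, a chemokine receptor at 3.11 on average in the first set, by -0.83. Cd14, the lipopolysaccharide coreceptor, overlapped, with 6.56 to 8.39 against 6.81, 7.85, 7.31 and 6.51 (0.16).

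Neutrophil and platelet genes gave few separated members. Of 12 neutrophil and granule genes, 1 was lower and 0 higher (median -0.49). It was Defa5, a defensin, at -0.66. S100a8, a calcium-binding protein of neutrophils and monocytes, spread from 3.69 to 7.51 (median 5.30) in replicates 1 to 6, with replicate 1 highest and replicate 2 lowest, and was at 6.54, 5.95, 5.71 and 5.91 in replicates 7 to 10. Of 18 platelet genes, 1 was lower and 0 higher (median -0.74, or -0.27 with the actin covariate). After a second quantile normalization the platelet and erythroid medians were alike, at -1.03 and -1.02. The lower one was Sparc, a secreted matrix protein of platelet granules, at -0.78, while Pf4, platelet factor 4, was at 12.98 to 14.05 (median 13.76) against 13.73, 13.78, 13.48 and 13.71, a difference of -0.01.

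Genes of RNA processing were mostly higher in replicates 1 to 6 where they separated. The hnRNP, splicing and decay lists below had median levels of 10.28, 9.78 and 8.92, in the highest of 4 level bins. Of all genes in that bin 26.1% were higher and 8.24% lower, with a median difference of 0.26. Of 38 genes of hnRNPs (nuclear proteins that coat transcripts) and RNA helicases, 22 were higher and 0 lower, with a median of 0.74, or 0.49 after a second quantile normalization. Sfpq, a nuclear paraspeckle protein, was at 9.62 to 10.28 (median 10.16) against 7.01, 7.19, 8.23 and 7.44, a difference of 2.61 (6.12-fold). Dhx9, a nuclear RNA helicase, was at 9.34 to 11.15 (median 10.72) against 7.94, 7.97, 8.91 and 8.43 (2.26), the 9.34 being replicate 1. Hnrnpd, which binds AU-rich elements, differed by 2.19, and Ddx39b, a helicase of splicing and export, by 1.66. Hnrnpa1, a splicing repressor, was at 11.48 to 12.19 (median 11.99) against 10.72, 10.59, 10.73 and 10.22 (1.37).

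Splicing and decay factors shifted less. Of 56 splicing factors, 17 were higher and 1 lower, with a median of 0.43, or 0.18 after a second quantile normalization. Srrm2, a large protein of the spliceosome and of nuclear speckles, was at 12.93 to 13.19 (median 12.98) against 11.62, 11.57, 11.47 and 10.82 (1.66), and Srsf4, an SR protein, differed by 1.49, Sf1, the branch point binding protein, by 1.48 and Pnn, a speckle protein, by 1.34. The lower one, named after its value was seen, was U2af2, which binds the polypyrimidine tract, at -0.41. Of 44 genes of cleavage, polyadenylation and decay, 15 were higher and 2 lower (median 0.42, or 0.081 after a second quantile normalization). Cnot7, a deadenylase, differed by 1.36, and Upf3a and Upf2, of nonsense-mediated decay, by 1.36 and 1.33. Exosc5, a core subunit of the RNA exosome, was at 7.04 to 7.59 (median 7.37) against 9.08, 8.81, 8.70 and 8.14 (-1.34).

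Ribosome genes lay nearer to all genes. Of 46 genes of ribosome biogenesis, 6 were higher and 3 lower (median 0.18, or -0.12 after a second quantile normalization). Gar1, a small nucleolar RNP protein, differed by 1.66 and Ncl, nucleolin, by 1.26. Of 36 cytosolic ribosomal proteins, 3 were higher and 0 lower (median 0.14), with Rpl13a at 0.38 and Rpl5 at 0.26. Replicate 1 was the lowest of its set in the mean centred level of both the splicing and the ribosomal protein list.

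The class farthest upward was that of chromatin proteins and other large nuclear regulators. Of 49 measured, 33 were higher and 0 lower, with a median of 1.14. Mga, a MAX-binding repressor, was at 9.31 to 10.03 (median 9.57) against 7.36, 7.18, 6.63 and 6.12 (2.78). Tet3, which oxidises methylcytosine, was at 8.09 to 8.83 (median 8.42) against 5.30, 5.14, 6.94 and 6.43 (2.52), Setd5, a chromatin regulator with a SET domain, differed by 2.47 and Arid1b, a BAF remodelling subunit, by 2.29. Of the 10 genes with the largest difference upward, several have like roles. Ubn1, a subunit of a histone chaperone, was at 9.66 to 10.06 (median 9.84) against 6.63, 6.75, 7.11 and 5.91, a difference of 3.22 (9.34-fold). Zbtb20 (3.04), Klf13 (2.78), Bhlhe22 (2.76) and Bcl11b (2.74) are transcription factors, Igf1r (2.81) a growth factor receptor, Slfn5 (2.78) a Schlafen protein, and Wac-ps1 (3.09) and Bod1l1 (2.90) complete the list with Mga. For Ubn1 and Mga the lowest array of the first set was far above the highest of the second, with 9.66 over 7.11 and 9.31 over 7.36.

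Immediate early genes were higher more often than lower. Of 42 measured, 13 were higher and 2 lower, with a median of 0.36. It was 0.12 after a second quantile normalization and 0.047 with the actin covariate. Klf2, a quiescence factor that is also induced early, was at 11.24 to 12.30 (median 12.05) against 9.80, 9.84, 10.95 and 9.50 (1.91). Myc was at 7.33 to 8.46 (median 8.39) against 6.44, 6.03, 6.46 and 6.34 (1.86), and Zfp36l1, which destabilises AU-rich transcripts, differed by 1.68. Egr1 was at 7.31 to 7.98 (median 7.71) against 5.95, 6.60, 6.85 and 6.90 (1.12). Fos, a component of the AP-1 factor, was at 7.38 to 9.18 (median 8.30) against 7.36, 7.08, 7.11 and 6.88 (1.10), so the nearest arrays of the sets, replicates 5 and 7, were almost level. Its partner Jun differed by 1.24, with overlap between replicate 5 (8.12) and replicate 9 (8.19). The 2 lower genes, named after their values were seen, were Egr2 (-0.48) and Egr3 (-0.69), at mean levels of 3.68 and 4.40 in the first set.

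The stress classes did not move as one. Of 31 heat shock genes, 5 were higher and 5 lower (median 0.13), with Dnajb4, a cochaperone, at 0.83, Hsbp1, a heat shock factor binding protein, at -0.88 and the cochaperone Dnaja4 at -0.84. Of 27 genes of endoplasmic reticulum (ER) stress and the amino acid response, 6 were higher and 3 lower (median 0.33, or 0.041 after a second quantile normalization). Hspa5, the chaperone BiP, was at 10.94 to 11.58 (median 11.33) against 10.16, 10.34, 9.91 and 9.29 (1.37), and Pdia3, a disulfide isomerase, differed by 1.28, Edem1 by 0.92 and Trib3 by 0.83. Of 21 redox and NRF2 target genes, 0 were higher and 6 lower (median -0.54). The glutathione peroxidases Gpx4 (-1.30), Gpx1 (-0.89) and Gpx3 (-0.76) were among them, with Gpx1, abundant in red cells, at 12.44 to 13.40 (median 12.69) against 13.76, 13.79, 13.62 and 13.68.

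Apoptosis and hypoxia genes were mixed. Of 24 p53 and apoptosis genes, 7 were higher and 2 lower, with a median of 0.07. Xiap, an inhibitor of caspases, differed by 1.73, Casp8, an initiator caspase, by 1.70, Bbc3, the proapoptotic PUMA, by 1.45 and Mcl1, an antiapoptotic BCL2 relative, by 1.36. Of 25 hypoxia and glycolysis genes, 2 were higher and 3 lower (median -0.13), with Pfkfb3, a regulator of glycolysis, at 0.99 and Tpi1, triosephosphate isomerase, at -0.94. The signs of the heat shock, apoptosis and hypoxia medians changed with the scaling. After a second quantile normalization they were -0.092 for heat shock and -0.016 for apoptosis, and after centring 0.0051 for hypoxia.

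Respiratory chain, cytokine and cell cycle genes were mostly lower where they separated, while proteasome and interferon genes went both ways. Of 57 respiratory chain genes, 14 were lower and 0 higher (median -0.48). The share lower, 24.6%, lay near the 20.8% of all genes. It was above the 8.24% of genes at like levels (highest of 4 level bins, median difference 0.26). Cox8a, a small subunit of cytochrome oxidase, was at 9.27 to 9.70 (median 9.54) against 11.24, 11.38, 11.52 and 11.30 (-1.84), with Cox6b1 at -1.44, Cox6a1 at -1.32 and Ndufa3, of complex I, at -1.01. Of 35 proteasome genes, 2 were higher and 3 lower (median 0.03, or -0.29 after a second quantile normalization), among them Psmd12 (0.66) and Psmb7 (-1.26). Of 40 cytokine and chemokine genes, 12 were lower and 0 higher (median -0.51). Of the 12, 10 averaged between 3.41 and 4.85 in replicates 1 to 6, near the lower end of the scale, such as Lif at 3.55 against 4.48 and Il12b at 3.89 against 4.65. The others were Ccl5, given above, and Nos2, an inducible enzyme on the same list, at 6.89 against 7.77. Of 37 interferon genes, 6 were higher and 5 lower (median -0.08), with the GTPase Igtp at 1.86, the factor Irf7 at -1.39, the nuclease Isg20 at -1.13 and the ubiquitin ligase Trim25 at 1.02. The interferon median was 0.054 after centring. Of 14 MHC class II genes, 1 was higher (RT1-Bb, 0.76) and 4 lower (median -0.27), including RT1-DMb (-0.77) and RT1-Ba (-0.35). Of 39 cell cycle genes, 16 were lower and 1 higher (median -0.39), with Tk1, Tyms (-1.48), Cdk1 (-1.30) and Ccnb1 (-1.15) lower. The higher one, named after its value was seen, was Cdkn1b, the cell cycle inhibitor p27, at 12.59 to 12.92 against 11.45, 11.72, 12.14 and 11.72 (1.00).

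**Figure D3:**
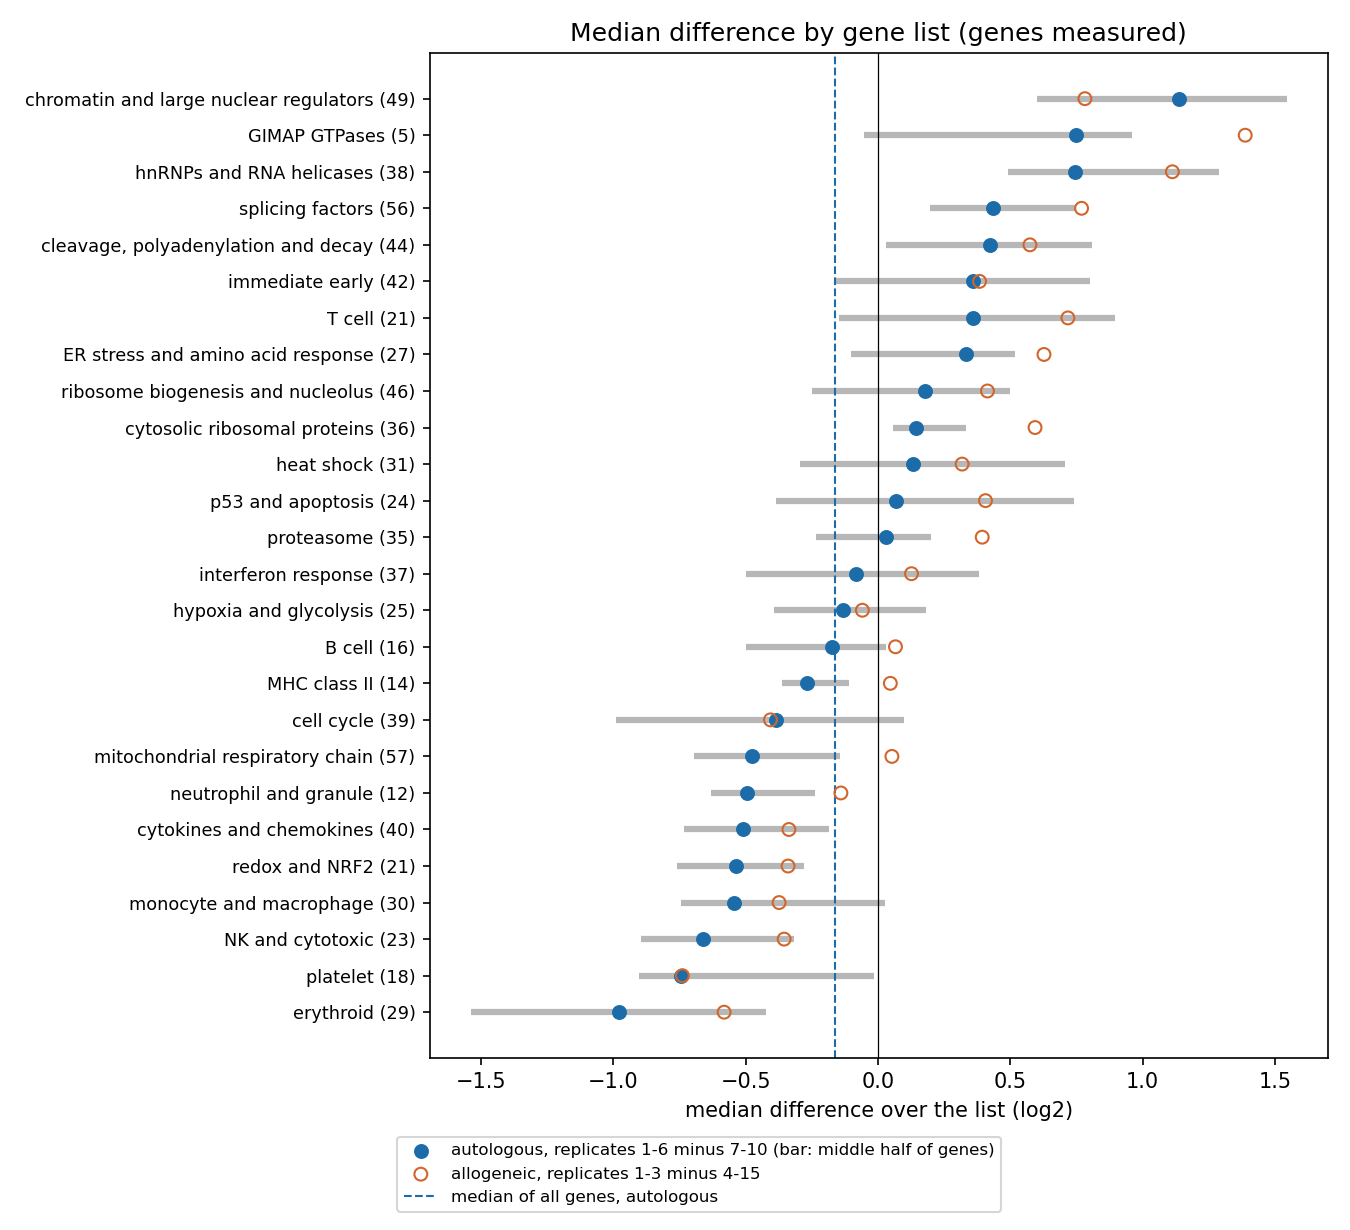
Median difference (log2) over the measured genes of each of 26 gene lists, with the number measured in brackets; filled points and bars give the autologous arrays, replicates 1 to 6 minus 7 to 10, from the lower to the upper quartile of the genes, and open points the allogeneic arrays, replicates 1 to 3 minus 4 to 15. The dashed line is the median of all genes (-0.16); the erythroid list lies lowest (-0.98) and the chromatin list highest (1.14).

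The difference went with the level of the gene and, at higher levels, with its genomic span. The deposited arrays were also spread unlike. The lower quartile of an array's values was 3.93 to 4.13 in replicates 1 to 6 and 4.17 to 4.29 in replicates 7 to 10. The upper quartile was 7.27 to 7.66 and 7.16 to 7.33. The part of this spread in the relation with level was not tested. In 4 equal bins by mean level over the 10 arrays, the median difference was -0.32, -0.38, 0.13 and 0.26 from lowest to highest. Of the genes in the lowest bin 0.45% were higher and 34.1% lower, in the second 4.05% and 30.2%, and in the highest 26.1% and 8.24%. The lists of cytokines and chemokines, monocyte genes and neutrophil genes had median levels of 5.45, 6.02 and 4.99, within the second bin, and their medians of -0.51, -0.54 and -0.49 are to be read against -0.38. Of these lists 30.0%, 26.7% and 8.33% were lower, none above the 30.2% of that bin. The erythroid list lay higher, at a median level of 7.95, where the bin median was 0.13. Among the lists in the highest bin were hnRNP, splicing, decay and chromatin genes, at median levels of 10.28, 9.78, 8.92 and 8.91. Their medians of 0.74, 0.43, 0.42 and 1.14 are to be read against 0.26. Of these lists 57.9%, 30.4%, 34.1% and 67.3% were higher, beside 26.1% of the bin, so the splicing and decay shares lay near it.

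Genomic span, the distance from the first to the last base of the gene in the rat gene table, went with the difference among genes with higher levels only. Over all levels, the median difference was -0.29, -0.20, -0.10, -0.04 and -0.13 from the shortest to the longest of 5 span bins. In the highest level bin, the median difference was -0.06, 0.10, 0.23, 0.41 and 0.68 from the shortest to the longest of 5 span bins. In the third level bin it was -0.11, 0.04, 0.13, 0.30 and 0.37. In the lowest level bin all 5 values lay between -0.34 and -0.30, and in the second between -0.43 and -0.34. The chromatin list had a median span of 106 kb and the ribosomal proteins 3.20 kb, against 22.3 kb for all genes, and their median differences were 1.14 and 0.14. Respiratory chain genes, with a median span of 7.18 kb, and immediate early genes, with 4.99 kb, were both short but had medians of -0.48 and 0.36. The part of span and of RNA integrity in the list medians was not tested.

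**Figure D4:**
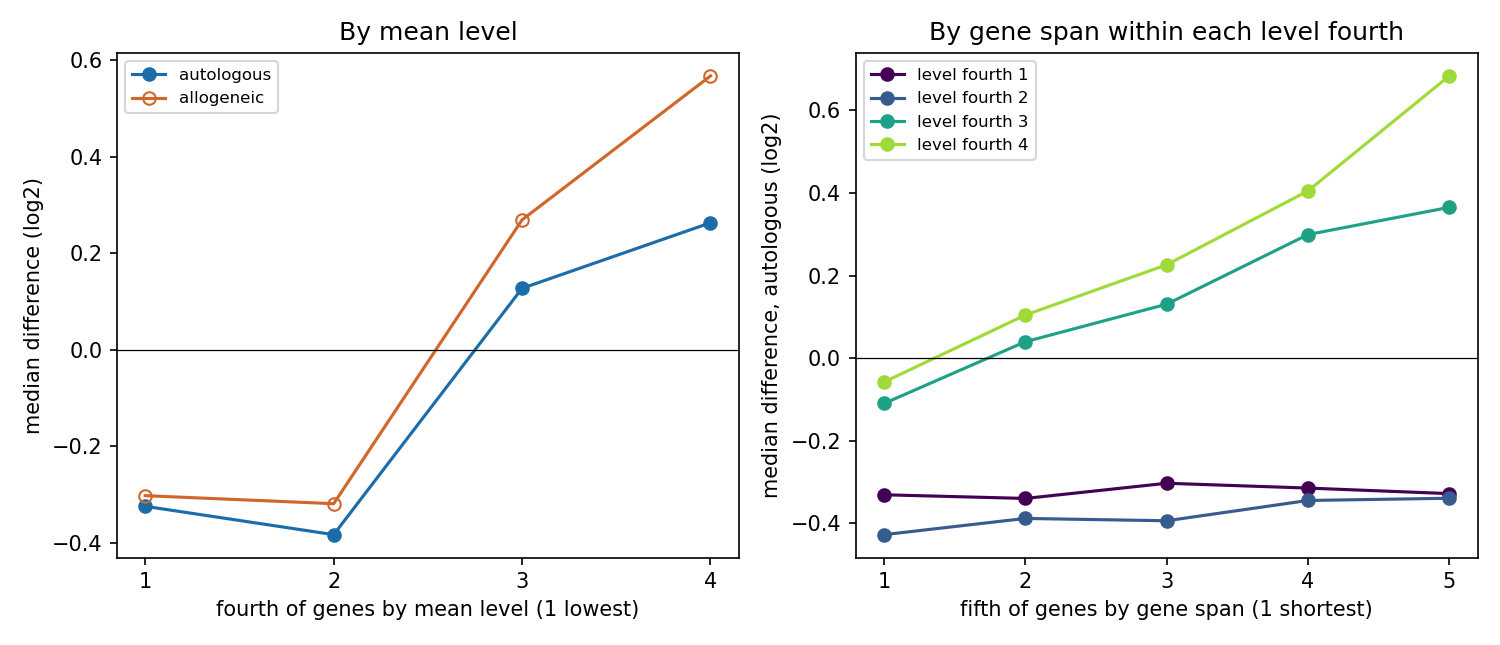
Left, median difference (log2) in 4 bins of genes by mean level, for the autologous sets (filled) and the allogeneic sets (open). Right, the autologous median difference in 5 bins by gene span within each level bin; in level bin 4 it runs from -0.06 to 0.68, and in level bin 1 from -0.34 to -0.30.

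Probe sets of one gene could disagree. Of 4525 genes with at least 2 probe sets, 2685 had at least 1 whose sets did not overlap, and 185 of these (6.89%) had probe sets that separated in opposite directions. The differences of a gene's probe sets spanned at least log2 1 in 985 genes (21.8%). Rrp12, a ribosome biogenesis factor, was at 7.25 to 9.91 (median 7.37) against 10.92, 10.53, 10.51 and 11.08 on its brightest probe set (-2.97), but its other probe sets gave 0.21 and 0.31 with overlap. Fos gave 1.10 on the brighter and -1.41 on the dimmer probe set, both without overlap. Pfkfb3 gave 0.99, -0.53 and -1.09, Xiap 1.73 and -0.34, and Arid1b between -1.35 and 2.29 over 6 probe sets. Klf2 gave 1.91 and 2.15 on its brighter probe sets and -0.51, -0.19 and 0.15 on the rest. Several of the largest differences were smaller on other probe sets. Setd5 gave 2.47, 0.47 and 0.29, Tet3 2.52, 0.79 and 0.01, and Mga 2.78, 1.33 and -0.37. Tk1 gave -3.52, -0.72 and -0.40, and Tfdp2 -2.67, -1.54 and 0.24. Ubn1 (3.22 and 1.68) and Bcl11b (2.74, 2.85 and 2.22) kept larger values. Srrm2 (1.66 and 1.60) and the 3 probe sets of Hnrnpa1 (1.37, 0.56 and 0.36) kept 1 direction. Of the erythroid genes named, Kel had a further probe set (-0.50), and so had Epb41 (1.12, with overlap). Rhd, Gata1, Ahsp, Alas2, Hbb and Cpox rest on 1 probe set each.

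**Figure D5:**
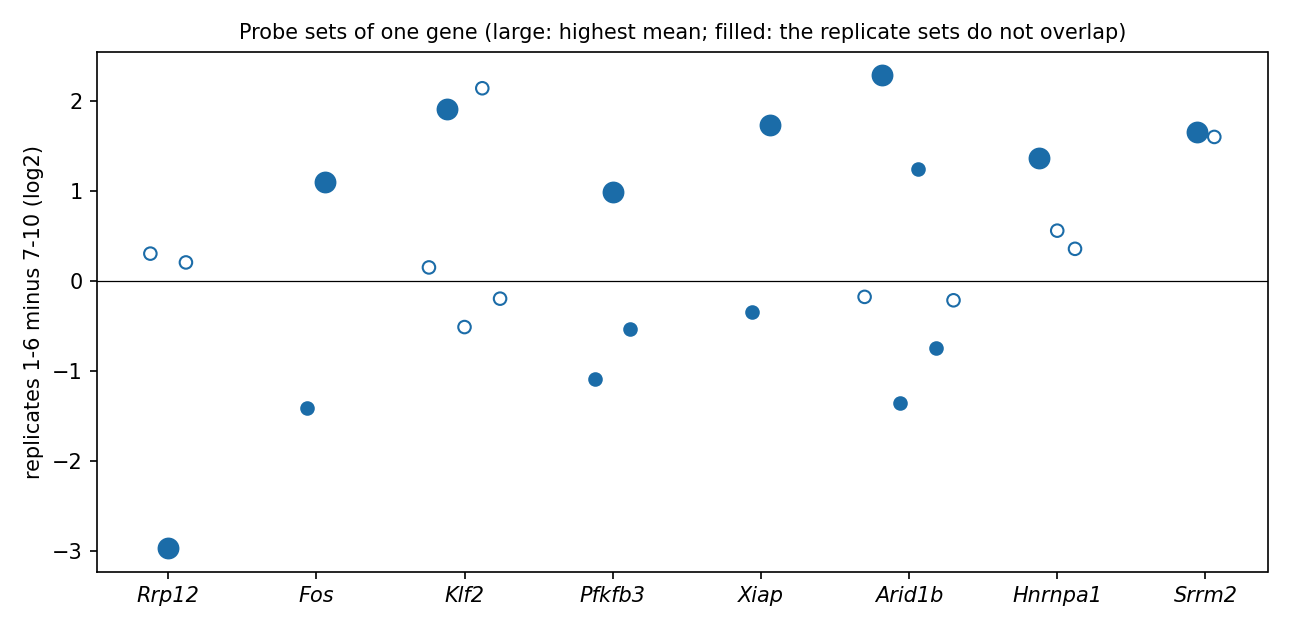
Difference between the autologous sets (log2) for every probe set of 8 genes, with a large point for the brightest probe set and filled points where replicates 1 to 6 and 7 to 10 did not overlap. Fos, Pfkfb3, Xiap and Arid1b have filled points on both sides of 0 (Fos 1.10 and -1.41), and Rrp12 is filled at -2.97 and open at 0.21 and 0.31.

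The allogeneic cultures were divided by the same clustering, replicates 1 to 3 from 4 to 15, and their values are given beside those above without a test. Between them 1525 genes (10.7%) were higher and 2202 (15.5%) lower, together 3727 (26.2%), and 1551 (10.9%) and 340 (2.39%) differed by at least log2 1. The allogeneic and autologous sets share no arrays, but the same clustering drew both divisions. Likeness between the 2 sets of differences was therefore partly fixed in advance and is no independent replication. Across 14217 genes, which are not independent, the 2 sets of differences correlated at r = 0.848. Of the 4606 genes separated in the autologous sets, 4440 (96.4%) had an allogeneic difference of the same sign, 2445 were separated the same way in both and 0 in opposite ways.

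The list medians were -0.74 in both the autologous and the allogeneic sets for platelet genes, 0.36 and 0.38 for immediate early genes, and -0.39 and -0.41 for cell cycle genes. For erythroid genes they were -0.98 and -0.58. Of the 29 erythroid genes, 5 were lower and 1 higher between the allogeneic sets, beside 15.5% and 10.7% of all genes. Rhd differed by -1.73 and Tk1 by -2.07 between the allogeneic sets. Gata1 (-1.78), Alas2 (-0.99) and Hbb (0.30) overlapped there. Sfpq differed by 2.80, Dhx9 by 3.01, Tcf7 by 2.34 and Klf2 by 1.81. Respiratory chain genes had an allogeneic median of 0.05 in place of -0.48, MHC class II genes 0.05 in place of -0.27 and B cell genes 0.07 in place of -0.18. Ribosomal proteins had 0.59 in place of 0.14, and hnRNPs and helicases 1.11 in place of 0.74. Among named genes, Trim25 differed by 1.02 in the autologous and -1.14 in the allogeneic sets, the latter with overlap, and Psmb7 by -1.26 and 0.11. Of the 10 genes with the largest difference upward, Bod1l1 differed by only 0.17 and Wac-ps1 by 0.46 between the allogeneic sets, with overlap. The others of the 10 differed by 1.32 to 2.62, and among them Ubn1 (1.84), Klf13 (1.36) and Bcl11b (1.33) overlapped as well. Setd5 (0.60) and Cd37 (-0.24) also had small allogeneic differences with overlap. Whether any of these differences differ between the cultures was not tested.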

How the data were processed

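Gene expression was measured in 53 rat cultures, 1 single-colour Affymetrix array each. The authors deposited log2 values per probe set, and the submitters' processing notes name RMA and Partek 6.2. RMA compresses differences near background, and the number of arrays limits the precision. Scan dates and the software version behind RMA are not given in the sources used here. The values were used as deposited. Of 31099 probe sets, 57 were controls, and of the other 31042 the platform annotation named 20826 with 1 symbol, 436 with several and 9780 with none. A total of 20758 matched the rat gene table, which gave gene spans (assembly GRCr8), and 0 symbols were updated. Where a gene had several probe sets, the one brightest on average in all 53 arrays stood for it, which left 14217 genes. 0 pairs of arrays correlated above 0.999.

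The 2 sets came from earlier clustering of these values. The members, the gene lists, the bins and the tests were chosen with earlier results of these data known, so the difference between sets was described (means, SD, overlap) and not tested. Named genes were the 10 largest separated differences in each direction, up to 4 separated members of each list (2 where none separated) and 15 fixed markers, of which Cd79a and Hspa8 were not measured; others are marked where they appear. The actin association was fitted with limma 3.58.1 in R 4.3.3, with variances following a trend on level and Benjamini-Hochberg adjustment over all probe sets, and was tested on simulated data. Figures and summaries used Python 3.11.15, pandas 2.3.3, scipy 1.17.1 and matplotlib 3.10.9.

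Alternatives were a second quantile normalization, median centring, only probe sets above the median level, the mean over a gene's probe sets, the actin difference as a covariate, the GAPDH difference, variances without a trend, the middle control probe sets, all 53 arrays, and leaving out each replicate. Gene span replaced the protein length first planned, and it, the fit without allogeneic replicate 2 and the values of every probe set were added after seeing the data.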

Additional observations from a re-analysis of the deposited data

Results flagged for a closer look

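In 33 of 296 sets of values examined, 1 array stood far from the rest of its set. Most genes examined were named for their difference between the sets, so no rate by chance is set beside this count. Genes share arrays, so the 33 are not independent. Replicate 1 was the array in 23 of them, replicate 5 and replicate 10 in 3 each, replicate 4 in 2, and replicates 7 and 9 in 1 each.

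Within replicates 1 to 6, replicate 1 was closer to replicates 7 to 10 for most of these genes. It was low for Igf1r (8.57, the others 9.09 to 9.35), Klf13 (7.76, the others 8.91 to 9.49), Tcf7 (10.11, the others 11.03 to 11.30) and Myc (7.33, the others 8.05 to 8.46). The apoptosis genes Casp8 (7.62, the others 8.34 to 8.53) and Bbc3 (8.32, the others 9.04 to 9.32) were also low in it. So were the RNA-binding proteins Dhx9 (9.34, the others 10.58 to 11.15), Ddx39b (10.01, the others 11.07 to 11.27) and Ncl (10.93, the others 11.40 to 11.61), and the interferon GTPase Igtp (7.66, the others 8.22 to 8.51). The platelet chemokine Pf4 was at 12.98 in replicate 1 and 13.66 to 14.05 in the others. Replicate 1 was high for Rrp12 (9.91, the others 7.25 to 7.57), Ctsb (11.53, the others 10.04 to 10.38), Il12b (4.44, the others 3.65 to 3.88) and Tyms (4.24, the others 3.06 to 3.40).

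The mean level of a list, with each gene centred over the 10 arrays, set replicate 1 apart in 8 lists. It was 0.92 for neutrophil genes, against -0.74 to -0.15 in the other 5 arrays. It was lower than the others for splicing (-0.082, the others 0.17 to 0.27), hnRNP and helicase (0.0098, the others 0.31 to 0.44) and cleavage and decay genes (-0.19, the others 0.12 to 0.29). The same held for ribosomal proteins (-0.30, the others 0.08 to 0.23), respiratory chain (-0.59, the others -0.13 to -0.06), proteasome (-0.56, the others 0.02 to 0.17) and chromatin genes (0.20, the others 0.41 to 0.53).

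Other arrays stood apart for single genes. Replicate 4 was high for Bod1l1 (8.32, the others 6.67 to 7.23) and Setd5 (10.41, the others 9.74 to 9.97). Replicate 5 was high for Cd37 (10.04, the others 9.21 to 9.51) and for the GIMAP list (0.88, the others -0.17 to 0.21), and low for the cell cycle list (-0.34, the others -0.18 to -0.11). Within replicates 7 to 10, replicate 7 was high for Gata1 (9.71, the others 9.29 to 9.34) and replicate 9 low for Gzmb (5.15, the others 5.63 to 5.70). Replicate 10 was low for Rpl5 (13.19, the others 13.59 to 13.63) and Gimap1 (6.95, the others 8.24 to 8.41) and high for Egr3 (5.26, the others 5.02 to 5.05).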

How the results depend on the processing

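The balance of higher and lower genes changed with the scaling. After median centring, 3717 probe sets and 1809 genes were lower, 346 probe sets by at least log2 1, and 56.2% of the separated probe sets were higher. Among probe sets above the median level, 1882 probe sets and 1170 genes were lower and 64.0% were higher. With the actin difference as a covariate, 1052 probe sets were lower by at least log2 1. A second quantile normalization gave list medians of 0.12 for T cell, -0.46 for B cell, -1.03 for platelet, -1.02 for erythroid, 0.12 for immediate early, -0.092 for heat shock (sign changed), 0.041 for ER stress, -0.016 for p53 and apoptosis (sign changed), 0.18 for splicing, 0.49 for hnRNP, 0.081 for cleavage, -0.12 for ribosome biogenesis (sign changed), -0.29 for proteasome (sign changed), 0.78 for chromatin, -0.17 for interferon, -0.42 for MHC class II and -0.52 for cell cycle genes. Median centring gave 0.50 for immediate early, 0.27 for heat shock, 0.0051 for hypoxia (sign changed), 0.20 for p53, 0.054 for interferon (sign changed), -0.13 for MHC class II and -0.25 for cell cycle genes. Probe sets above the median level gave 0.48 for immediate early, 0.28 for heat shock, 0.16 for p53, 0.12 for interferon (sign changed) and -0.15 for cell cycle genes. The mean over all probe sets of a gene gave 0.17 for immediate early, -0.078 for p53 (sign changed) and 0.93 for chromatin genes, and it reversed Fos (-0.15) and Pfkfb3 (-0.21). The actin covariate gave 0.62 for T cell, -0.35 for B cell, -0.22 for monocyte, -0.27 for platelet, -1.52 for erythroid, 0.047 for immediate early, 0.081 for ER stress, 0.12 for cleavage, -0.20 for ribosome biogenesis and -0.14 for proteasome (signs changed), 0.84 for chromatin, -0.0068 for interferon and 1.41 for GIMAP genes, and it reversed Defa5 (0.14), Epb41 (-0.0099) and the overlapping gene Cd4 (0.28). Because the actin difference separates the sets, that fit rests on its slope within them. The middle control probe sets gave differences of 0.59 for actin and 0.036 for GAPDH. The cause of these changes was not tested.

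Leaving out each replicate gave 3856 to 5194 probe sets higher and 6519 to 8697 lower, 2442 to 3053 and 496 to 862 by at least log2 1, and 1657 to 2377 genes higher and 3024 to 4052 lower, since fewer arrays overlap less often. It gave 1.27 to 1.49 for the actin and 0.65 to 1.02 for the GAPDH difference. List medians ran from -0.013 to 0.12 for p53, from 0.99 to 1.17 for chromatin, from -0.31 to -0.15 for MHC class II, from -0.12 to 0.015 for interferon, from -0.13 to 0.11 for proteasome, from 0.18 to 0.42 for ER stress, from 0.058 to 0.26 for ribosomal protein, from 0.11 to 0.26 for ribosome biogenesis, from 0.095 to 0.21 for heat shock, from -0.17 to -0.048 for hypoxia, from -0.30 to -0.13 for B cell, from -0.88 to -0.46 for platelet and from 0.47 to 0.97 for GIMAP genes. The sign changed without replicate 3 or 10 for p53, without replicate 8 for interferon, and without replicate 2, 3, 4, 6 or 10 for proteasome genes. The platelet median was -0.46 without replicate 7, the B cell median -0.30 without replicate 9, and the ribosomal protein median 0.26 without replicate 1 and 0.058 without replicate 10. For 114 genes, 433 of 561 values under the other settings lay within 1 SD of the main value. In another 123 the change was larger, toward or away from no difference, and the sign was kept. The sign changed in 9, namely the 5 values above for Fos, Pfkfb3, Defa5, Epb41 and Cd4 and 4 within 1 SD for Cd14 and Pf4. All 1140 values without a replicate lay within 1 SD, 6 of them, for Cd14 and Pf4, with the sign changed.

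The association with the actin difference within the 10 arrays called 0 probe sets with limma under every setting run, with 1409 at an unadjusted p under 0.05 for GAPDH. The smallest adjusted p with limma ran from 0.105 without replicate 1 to 0.925 without replicate 2. Across 53 arrays it called 1145, and 768 without allogeneic replicate 2, a setting chosen after seeing the data. No paired analysis was possible because replicates 1 to 6 and 7 to 10 share no replicate number. Signal near background limits the low genes, whose differences RMA compresses.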
